A study of Mus musculus with 192 samples.

Results

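Mitotic-high and mitotic-low cells are the 2 ends of a ranking of single colony-forming units-erythroid (CFU-E), committed red cell progenitors, by the transcripts of 5 mitotic genes. Of 95 CFU-E wells, 89 held at least 100000 gene-assigned counts and 2000 genes with a count. Of these, 86 also reached a summed level of 100 counts per 1000000 counts (CPM) for the erythroid genes Gata1, Klf1, Epor and Mfsd2b. Each of the 86 cells was scored by its mean log2(CPM + 1) of Plk1, Aurka, Ccnb1, Cdc20 and Cenpe. The 30 highest cells (mitotic-high) were set against the 30 lowest (mitotic-low), which makes 60 of the 191 cells of the series, and the 26 cells between them are given as middle cells. The members were thus selected on the measured levels of these 5 genes, and every other gene was read in the same cells, so no difference between the groups is an independent result and none was tested.

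The series holds 1 plate of 96 CFU-E wells and 1 plate of 96 wells with burst-forming units-erythroid (BFU-E), the progenitors that precede CFU-E, both from the fetal liver of C57/Bl6J mice at embryonic day 14.5. Livers were dispersed, mature red cells were lysed, and cells with lineage antigens, Sca-1, CD16/32 or CD41 were removed with magnetic beads before single cells stained for CD117, CD71 and CD24 were sorted into wells. No treatment or mutant allele is named in the labels, and neither the sort gates nor the animals behind the wells are given there. Mitotic-high, middle and mitotic-low cells came from the same plate, lane and sort, so these do not separate the groups, while each plate counts as 1 sample and cells are not replicates of a condition.

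A dividing cell copies its DNA in S phase and parts the copies in mitosis. E2F factors switch on the genes of S phase entry, and the MuvB complex, joined by MYBL2 and FOXM1, switches on the later mitotic genes, many of them through a promoter element called the cell cycle genes homology region (CHR). Cyclin B with CDK1 drives entry into mitosis, PLK1 and the Aurora kinases build the spindle, and the anaphase-promoting complex, switched on by CDC20, marks cyclin B for destruction. CFU-E are known as fast-cycling cells, and their maturation into hemoglobin-making erythroblasts is coupled to these divisions.

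Total counts per cell spanned 450838 to 2845404 in mitotic-high cells, with a median of 1099873, and 131891 to 2553043 in mitotic-low cells, with a median of 951014. Each cell was therefore thinned to 100000 counts, so that 1 count in a cell equals 10 CPM and each group sums to 3000000 counts. The median number of genes with a thinned count was 5985 in mitotic-high cells and 5775.5 in mitotic-low cells, and 11 of 30 mitotic-high cells lay above every mitotic-low cell. Mitochondrially encoded transcripts took a median of 5.01% of counts in mitotic-high cells and 4.53% in mitotic-low cells. All levels below are CPM of the thinned sums with exact 95% Poisson intervals, and folds carry exact conditional intervals. These intervals cover nothing beyond counting error, and PCR copies that carry no molecular identifier are not independent molecules.

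The 5 ranking genes differed between the groups because the groups were chosen on them. Plk1, the Polo kinase of the spindle poles and kinetochores, spanned 189 to 932 CPM before thinning in mitotic-high cells, with a median of 557, and 11.4 to 321 CPM in mitotic-low cells, with a median of 139. Ccnb1, cyclin B1, had medians of 1017 CPM in mitotic-high and 247 CPM in mitotic-low cells. These medians show the fold between the ends that the ranking itself set. Cdc20, the activator of the anaphase-promoting complex, had medians of 664 CPM in mitotic-high and 290 CPM in mitotic-low cells, and Aurka, Aurora kinase A, of 208 CPM in mitotic-high and 40.8 CPM in mitotic-low cells. Cenpe, a kinetochore motor, had medians of 201 CPM in mitotic-high and 41 CPM in mitotic-low cells. No single gene parted the groups: the highest Cenpe value of all 60 cells, 476 CPM, was reached at both ends of the ranking. The score ran without a gap from 9.23 to 5.66, with medians of 8.62 in mitotic-high, 7.85 in middle and 6.86 in mitotic-low cells. At the upper limit the last cell inside, cell 45, scored 8.12 and the first outside, cell 2, scored 8.11. At the lower limit the first cell inside, cell 22, and the last outside, cell 52, both scored 7.39. Mitotic-low is therefore the lower end of a continuous range, and its cells still held transcripts of these genes.

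**Figure D1:**
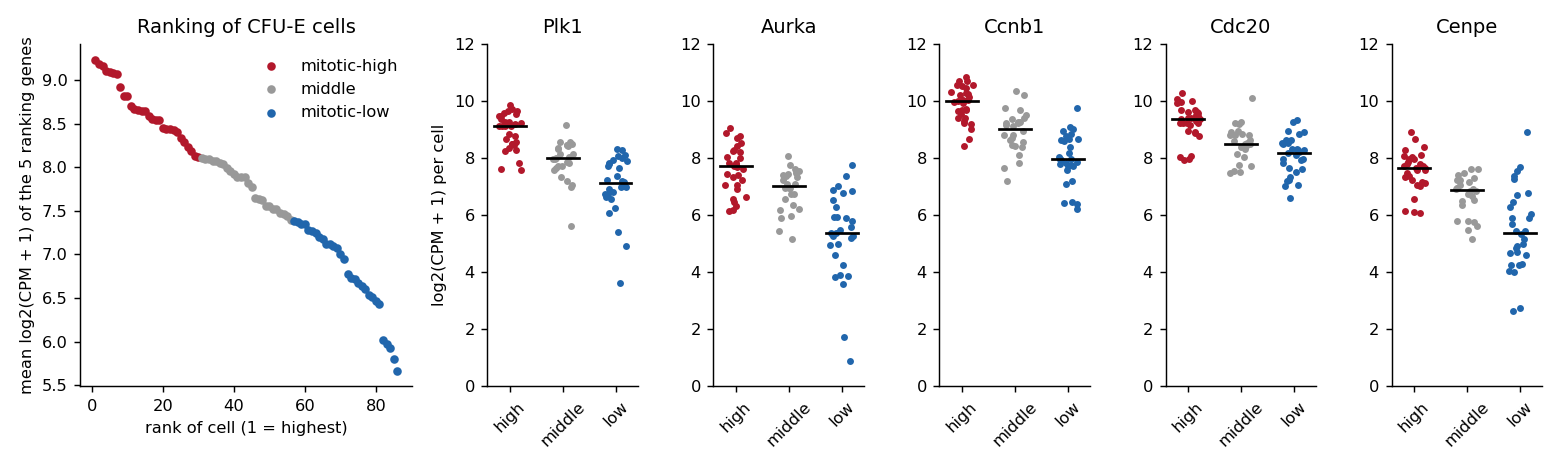
The score of all 86 ranked CFU-E cells against rank (left) and log2(CPM + 1) of the 5 ranking genes in each cell before thinning (right), with 1 point per cell and a line at the group median. Scores fall from 9.23 to 5.66 without a gap between the groups, and the values of each gene in mitotic-high and mitotic-low cells overlap.

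Among the genes not used for the ranking, 11 of 40 of the spindle, 4 of 14 of cytokinesis and 5 of 18 of mitotic entry were at least 2-fold higher in mitotic-high cells, and 4 of 31 of S phase entry were at least 2-fold lower. The comparison covered 6855 genes with a mean of at least 10 CPM over both groups and a count in at least 15 of the 60 cells. Of these, 218 (3.18%) were at least 2-fold higher in mitotic-high cells and 235 (3.43%) at least 2-fold lower. The fold was taken on the log2(CPM + 1) scale, where the median over all measured genes was −0.02. The 7 lists of mitotic genes held 172 measured genes, with a median log2 fold of 0.29, and 32 of them passed 2-fold upward against 0 downward. The 2 replication lists held 71 measured genes, with a median of −0.23, and 0 of them passed 2-fold upward against 5 downward. Middle cells lay between the groups for 175 of the 218 higher genes and 169 of the 235 lower ones, against 2421 of all 6855 (35.3%). Genes chosen for a wide gap between the ends hold the middle value between them more often by construction. In 6 of the 218 higher and 4 of the 235 lower genes, 1 cell gave over 50% of the counts of the higher group. By medians over cells, 141 of the 218 and 102 of the 235 were also at least 2-fold apart in the same direction. Transcripts of 8 hepatocyte markers summed to 139 CPM in mitotic-high and 169 CPM in mitotic-low cells, and at least 3 hepatocyte markers were counted in 3 mitotic-high and 9 mitotic-low cells. Without these cells, 1 mitotic-high cell with 3 endothelial and stromal markers and 1 with both Xist and Y-linked counts (5 mitotic-high and 9 mitotic-low cells in all), 341 genes passed 2-fold upward and 303 downward, with 37 mitotic list members among the first and 5 replication list members among the second.

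**Figure D2:**
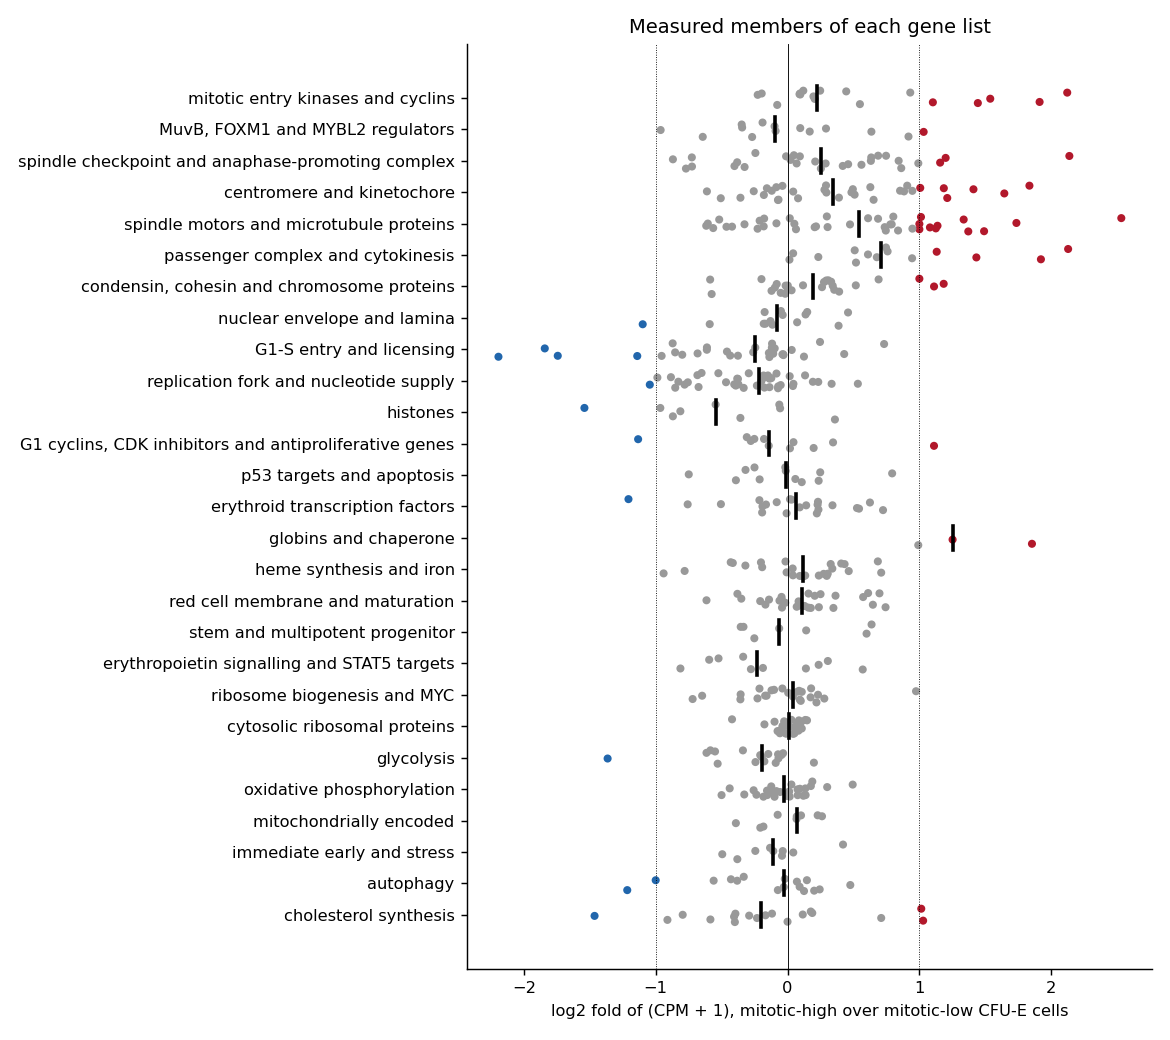
Log2 fold, mitotic-high over mitotic-low CFU-E cells, of each measured member of the 27 gene lists, with 1 point per gene, a bar at the list's median and dotted lines at 2-fold. Red points (at least 2-fold higher) lie mostly in the mitotic lists, and the list with the most blue points (at least 2-fold lower) is that of G1-S entry and licensing, with 4.

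Genes that carry cells into mitosis came first among the mitotic lists by function. Of 18 measured entry kinases and cyclins, 5 were at least 2-fold higher, namely Gtse1, Cdc25c, Ccnf, Cdk1 and Cdc25b. Cdk1, the catalytic partner of cyclin B, ran from 0 to 730 CPM per cell in mitotic-high cells, with a median of 325, and from 10 to 380 CPM in mitotic-low cells, with a median of 110. Its summed level was 323 CPM (303 to 344) in mitotic-high and 118 CPM (106 to 131) in mitotic-low cells, a 2.73-fold difference (2.42 to 3.1), with 198 CPM in middle cells. Most mitotic-high cells, 25 of 30, exceeded the mitotic-low median, but the ranges overlapped. Ccnf, cyclin F, an F-box protein that directs degradation late in the cycle, was at 389 CPM in mitotic-high cells and 133 CPM in mitotic-low cells. Gtse1, a microtubule-bound regulator of p53 and of mitosis, was at 52.7 CPM in mitotic-high and 11.3 CPM in mitotic-low cells. Cdc25c and Cdc25b, phosphatases that switch CDK1 on, stood 1.91 and 1.10 higher on the log2 scale. The other cyclins of this list were near level: Ccnb2, cyclin B2, was at 279 CPM in mitotic-high and 243 CPM in mitotic-low cells, and Ccna2, cyclin A2, at 1154 CPM in mitotic-high and 1322 CPM in mitotic-low cells. Ccnb1 and Ccnb2, the B-type cyclins of mitosis, thus differed by 1.71 and 0.20 on the log2 scale, the first of them being a ranking gene.

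The genes of the spindle and its motors formed the list with the most members past 2-fold, 11 of 40 measured, with a median log2 fold of 0.54. Kpna2, an importin alpha that carries spindle factors and releases them near chromatin, was highest of all list members by fold. It ran from 0 to 2020 CPM per cell in mitotic-high cells, with a median of 1365, and from 50 to 620 CPM in mitotic-low cells, with a median of 150. In sum it stood at 1152 CPM (1114 to 1191) in mitotic-high, 561 CPM in middle and 198 CPM (183 to 215) in mitotic-low cells, 5.81-fold higher (5.32 to 6.35). There were 24 of 30 mitotic-high cells above every mitotic-low cell, and 4 below the mitotic-low median. Hmmr, a spindle assembly factor, was at 246 CPM in mitotic-high and 87 CPM in mitotic-low cells, and each of the 30 mitotic-high cells lay above the mitotic-low median. Nusap1, which bundles spindle microtubules, was at 180 CPM (165 to 196) in mitotic-high and 53.3 CPM (45.4 to 62.3) in mitotic-low cells. Its exons overlap those of Oip5, a kinetochore-targeting gene also counted as higher, and without the strand setting reads of the pair cannot be told apart. The remaining spindle genes past 2-fold were Kif11, the motor that pushes spindle poles apart, with 308 CPM in mitotic-high and 118 CPM in mitotic-low cells, and Arl6ip1, Ckap2, Aspm, Ckap5, Tuba1c, Kif20b and Kif4, with log2 folds of up to 1.34. Tuba1c has close copies among the alpha-tubulin genes, and its reads may have been split between them.

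In the passenger complex and cytokinesis list all 14 measured genes had a positive log2 fold, the median was 0.71, and 4 passed 2-fold. Kif23, a motor of the central spindle, ran from 10 to 430 CPM per cell in mitotic-high cells, with a median of 190, and from 0 to 200 CPM in mitotic-low cells, with a median of 35. It was counted in 30 of 30 mitotic-high cells and 19 of 30 mitotic-low cells, with sums of 187 CPM (172 to 203) in mitotic-high and 42 CPM (35 to 50) in mitotic-low cells. Prc1, which crosslinks the antiparallel microtubules of the midzone, stood at 359 CPM (338 to 381) in mitotic-high and 94 CPM (83.3 to 106) in mitotic-low cells, and 19 of 30 mitotic-high cells exceeded every mitotic-low cell. Aurkb, Aurora kinase B, was 2.72-fold higher (2.36 to 3.13), with 27 of 30 mitotic-high cells above the mitotic-low median, and Anln, the cleavage furrow protein anillin, had a log2 fold of 1.13. Racgap1, the partner of Kif23 in the centralspindlin complex, was at 79.3 CPM in mitotic-high and 77 CPM in mitotic-low cells, so the members of that complex differed in fold.

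The checkpoint and anaphase-promoting complex list held 29 measured genes, with a median log2 fold of 0.25, and 3 of them, Ube2c, Spdl1 and Anapc15, passed 2-fold upward. Ube2c, the ubiquitin-conjugating enzyme that works with the anaphase-promoting complex, was counted in all 30 mitotic-high cells, at 100 to 920 CPM with a median of 545. In mitotic-low cells it ran from 0 to 310 CPM, with a median of 100, and 22 of 30 mitotic-high cells lay above all of them. Its sums were 501 CPM (476 to 527) in mitotic-high, 241 CPM in middle and 113 CPM (101 to 126) in mitotic-low cells. The checkpoint kinase Bub1 was at 118 CPM in mitotic-high and 96.7 CPM in mitotic-low cells and the checkpoint protein Mad2l1 at 158 CPM in mitotic-high and 148 CPM in mitotic-low cells, so both differed less than Ube2c. Anapc15 was a low-level call, at 18.3 CPM in mitotic-high and 7.67 CPM in mitotic-low cells, and its log2 fold of 1.16 turned to −0.041 when the cells were thinned with another random seed. Among 32 measured centromere and kinetochore genes, 6 passed 2-fold upward, Cenpf, Spc25, Cenpl, Oip5 and Ndc80 among them, with a median of 0.34. Cenpf, a large kinetochore protein, was at 123 CPM (110 to 136) in mitotic-high and 33.7 CPM (27.4 to 40.9) in mitotic-low cells, where 1 cell gave 23.8% of its counts. Spc25 and Ndc80, subunits of the complex that grips microtubules, had log2 folds of 1.64 and 1.01.

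Of 26 condensin, cohesin and chromosome genes, Stag1, Top2a and Kif4 (counted in the spindle list too) were at least 2-fold higher. Top2a, the topoisomerase that untangles sister chromosomes, ran from 70 to 2930 CPM in mitotic-high cells, with a median of 1395, and from 60 to 1500 CPM in mitotic-low cells, with a median of 630. Its summed level was 2.16-fold higher (2.05 to 2.29). The MuvB, FOXM1 and MYBL2 list had a median of −0.09 over 14 measured genes, with Lin37, a MuvB subunit, as the only member past 2-fold, at 14 CPM in mitotic-high and 6.33 CPM in mitotic-low cells. Foxm1 itself was at 22.7 CPM in mitotic-high and 18.3 CPM in mitotic-low cells. Mybl2, the S phase partner of MuvB, leaned the other way, at 25 CPM in mitotic-high and 49.7 CPM in mitotic-low cells. Mki67, the Ki-67 protein that coats mitotic chromosomes and marks cycling cells, was at 425 CPM in mitotic-high and 351 CPM in mitotic-low cells. Of 14 nuclear envelope genes, 0 were 2-fold higher and Lmnb2, lamin B2, was lower, at 32 CPM in mitotic-high and 69.7 CPM in mitotic-low cells.

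**Figure D3:**
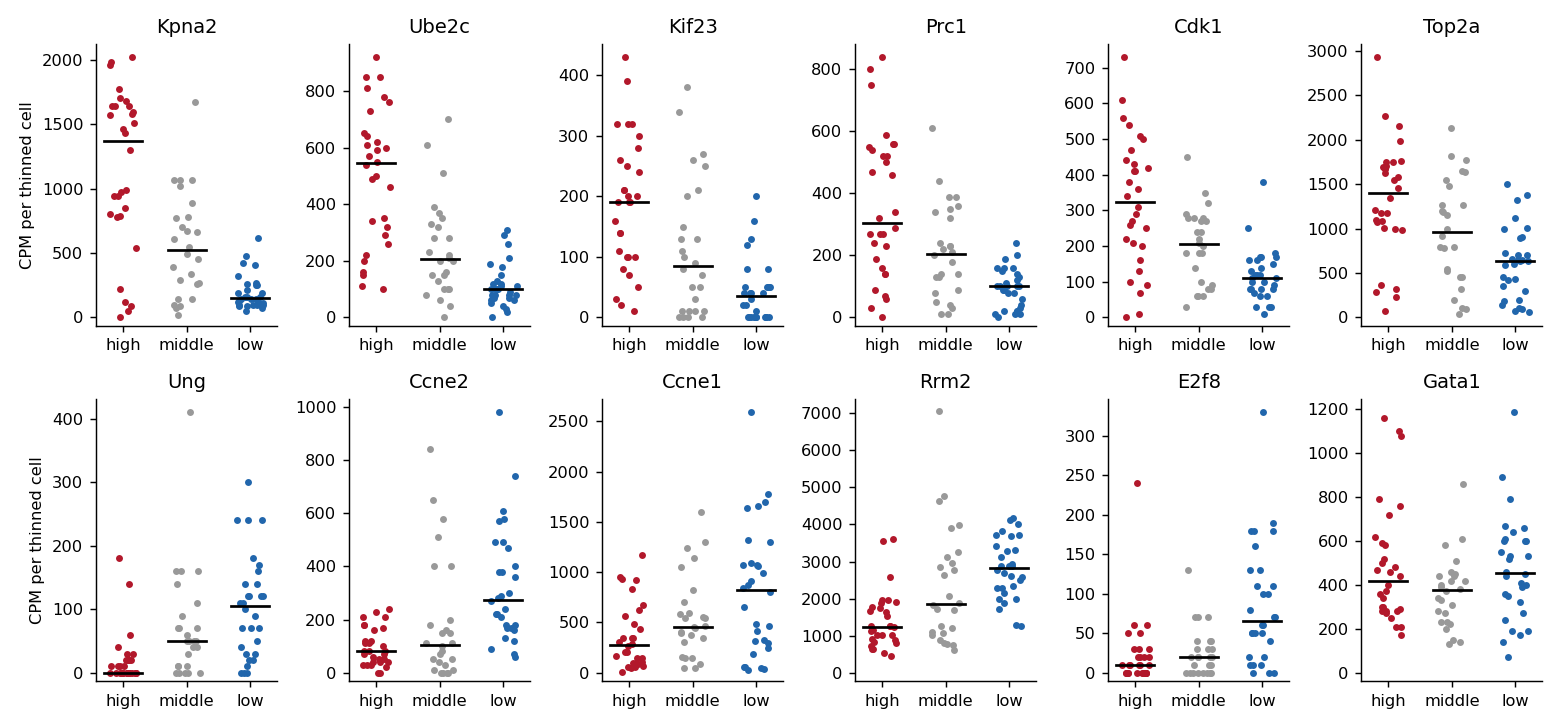
CPM per thinned cell of 12 named genes, with 1 point per cell and a line at the median, for 30 mitotic-high, 26 middle and 30 mitotic-low CFU-E cells. Kpna2, Ube2c, Kif23, Prc1, Cdk1 and Top2a are higher in most mitotic-high cells, Ung, Ccne2, Ccne1, Rrm2 and E2f8 are lower in most of them, and Gata1 has similar medians in all 3 groups.

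The list of S phase entry genes held the most members past 2-fold in the lower direction. Of 31 measured genes of G1-S entry and licensing, 26 had a negative log2 fold and 4 were at least 2-fold lower, namely E2f7, E2f8, Ccne2 and Ccne1. Ccne2, cyclin E2, which drives the start of replication with CDK2, ran from 0 to 240 CPM per cell in mitotic-high cells, with a median of 80, and from 60 to 980 CPM in mitotic-low cells, with a median of 275. All 30 mitotic-high cells lay below the mitotic-low median, although the ranges overlapped. Its sum was 97 CPM (86.2 to 109) in mitotic-high, 188 CPM in middle and 327 CPM (307 to 348) in mitotic-low cells, 3.37-fold lower (2.95 to 3.86). Ccne1, cyclin E1, was at 367 CPM (346 to 390) in mitotic-high and 811 CPM (779 to 844) in mitotic-low cells. E2f8, a repressor that closes the E2F wave, was at 23 CPM (17.9 to 29.1) in mitotic-high and 85 CPM (74.9 to 96.1) in mitotic-low cells, with 29 of 30 mitotic-high cells below the mitotic-low median. E2f7, its relative, was at 3.67 CPM in 5 mitotic-high cells and 20.3 CPM in 14 mitotic-low cells, each a sum over the group. The licensing helicase did not follow them: Mcm2 was at 966 CPM in mitotic-high and 1066 CPM in mitotic-low cells, and Mcm6 at 2365 CPM in mitotic-high and 2417 CPM in mitotic-low cells.

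Of 40 measured genes of the replication fork and nucleotide supply, 32 had a negative log2 fold and 1, the clamp loader subunit Rfc3, was at least 2-fold lower, at 41.3 CPM in mitotic-high and 86.3 CPM in mitotic-low cells. Rrm2, the small subunit of ribonucleotide reductase, ended just short of 2-fold: it ran from 440 to 3620 CPM in mitotic-high cells, with a median of 1245, and from 1270 to 4170 CPM in mitotic-low cells, with a median of 2815. Its sum was 1416 CPM (1374 to 1459) in mitotic-high and 2808 CPM (2748 to 2869) in mitotic-low cells, and 28 of 30 mitotic-high cells lay below the mitotic-low median. The large subunit, Rrm1, was at 2209 CPM in mitotic-high and 1934 CPM in mitotic-low cells, so the enzyme's subunits leaned opposite ways. Pcna, the replication clamp, was at 642 CPM in mitotic-high and 728 CPM in mitotic-low cells. Ung, the uracil-DNA glycosylase that removes uracil from new DNA, was the gene with the largest fold in the lower direction among all genes named by size. It was at 0 to 180 CPM per cell in mitotic-high cells, with a median of 0 and a count in 14 of 30 cells, and at 0 to 300 CPM in mitotic-low cells, with a median of 105 and a count in 27 of 30. The sums were 20 CPM (15.3 to 25.7) in mitotic-high and 104 CPM (92.5 to 116) in mitotic-low cells, 5.18-fold lower (3.92 to 6.95). Polyadenylated histone transcripts leaned the same way, with 8 of 9 measured genes negative, a median of −0.55 and the variant H2afy past 2-fold at 6.33 CPM in mitotic-high and 20.3 CPM in mitotic-low cells.

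Scored per cell, the groups overlapped for both programs. The mean log2(CPM + 1) of the 7 mitotic lists spanned 5.00 to 6.38 in mitotic-high cells, with a median of 6.07, and 4.80 to 5.97 in mitotic-low cells, with a median of 5.40. Of 30 mitotic-high cells, 18 lay above every mitotic-low cell and 27 above the mitotic-low median. The 3 others, cells 25, 7 and 62, scored 5.00, 5.08 and 5.29 on these lists although their ranking scores were 8.13, 8.40 and 8.43. The replication score spanned 6.10 to 7.21 in mitotic-high cells, with a median of 6.66, and 6.11 to 7.41 in mitotic-low cells, with a median of 7.05, and 28 of 30 mitotic-high cells lay below the mitotic-low median. Middle cells had medians of 5.74 for the mitotic and 6.74 for the replication score.

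**Figure D4:**
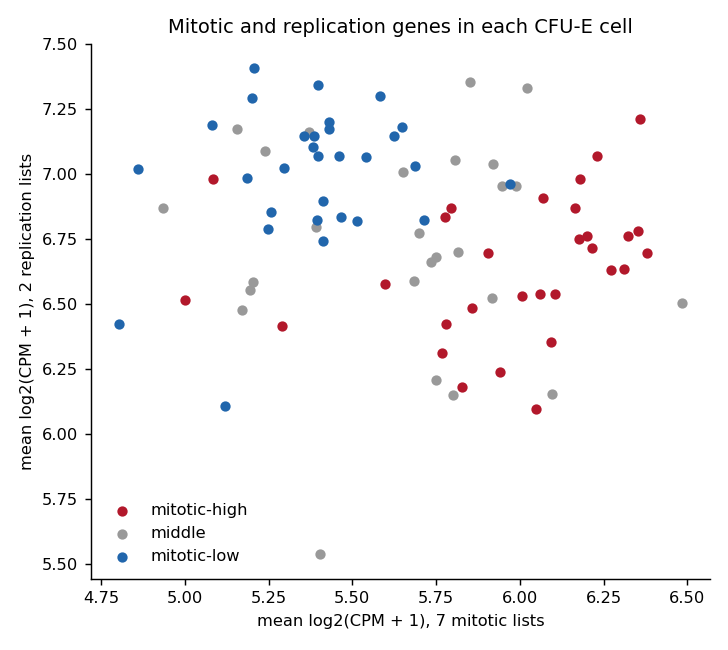
Mean log2(CPM + 1) over the measured members of the 2 replication lists against that of the 7 mitotic lists, with 1 point per CFU-E cell. Mitotic-high cells lie to the right and lower, mitotic-low cells to the left and higher, and middle cells fall across both.

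Promoter sequences are shown for 6 higher genes of mitosis and for the lower genes E2f8 and Ung, because the CHR element of such genes can be read in them. In GRCm38, Kpna2 (ENSMUSG00000018362) lies on chromosome 11 from 106988629 to 106999541, Ube2c (ENSMUSG00000001403) on chromosome 2 from 164769898 to 164778822, and Kif23 (ENSMUSG00000032254) on chromosome 9 from 61915905 to 61946774. Prc1 (ENSMUSG00000038943) lies on chromosome 7 from 80294450 to 80316259, Ccnf (ENSMUSG00000072082) on chromosome 17 from 24222198 to 24251484, and Cdk1 (ENSMUSG00000019942) on chromosome 10 from 69335146 to 69352938. E2f8 (ENSMUSG00000046179) lies on chromosome 7 from 48866429 to 48881596 and Ung (ENSMUSG00000029591) on chromosome 5 from 114130386 to 114139323. All 8 code for proteins. Reads were summed over whole genes, which leaves exons and isoforms unresolved. The stretches below are from RefSeq, GRCm38.p6, and hold 120 bases before and 25 after the start of transcription in the direction of the gene: Kpna2 at chr11:106999501-106999645 (minus strand), Ube2c at chr2:164769809-164769953 (plus strand), Kif23 at chr9:61946775-61946919 (minus strand), Prc1 at chr7:80294331-80294475 (plus strand), Ccnf at chr17:24251385-24251529 (minus strand), Cdk1 at chr10:69352888-69353032 (minus strand), E2f8 at chr7:48881572-48881716 (minus strand) and Ung at chr5:114130315-114130459 (plus strand). Capitals mark the CHR letters TTTGAA and TTTAAA, the box motif CCAAT and the E2F motifs TTTCCCGC, TTTGGCGC, TTTCGCGC and TTTGCCGC, on either strand, so that TTCAAA and ATTGG are the CHR and the box motif read on the other strand.
Kpna2: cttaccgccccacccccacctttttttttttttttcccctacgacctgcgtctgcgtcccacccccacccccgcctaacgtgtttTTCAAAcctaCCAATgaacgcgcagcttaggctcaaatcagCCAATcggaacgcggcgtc
Ube2c: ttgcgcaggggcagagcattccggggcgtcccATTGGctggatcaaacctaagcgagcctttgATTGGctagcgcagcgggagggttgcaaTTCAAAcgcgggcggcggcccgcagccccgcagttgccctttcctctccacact
Kif23: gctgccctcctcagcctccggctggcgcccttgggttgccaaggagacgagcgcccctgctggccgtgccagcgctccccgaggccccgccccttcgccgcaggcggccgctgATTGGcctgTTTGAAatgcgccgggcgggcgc
Prc1: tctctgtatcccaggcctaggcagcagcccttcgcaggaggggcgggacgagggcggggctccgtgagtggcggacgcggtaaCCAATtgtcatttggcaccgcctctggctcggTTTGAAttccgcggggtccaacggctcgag
Ccnf: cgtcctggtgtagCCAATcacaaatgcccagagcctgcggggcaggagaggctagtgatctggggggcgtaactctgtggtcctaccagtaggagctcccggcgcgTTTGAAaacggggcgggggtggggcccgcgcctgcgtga
Cdk1: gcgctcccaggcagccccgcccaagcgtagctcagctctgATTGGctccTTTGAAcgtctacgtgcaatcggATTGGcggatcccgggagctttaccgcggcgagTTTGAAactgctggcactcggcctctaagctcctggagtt
E2f8: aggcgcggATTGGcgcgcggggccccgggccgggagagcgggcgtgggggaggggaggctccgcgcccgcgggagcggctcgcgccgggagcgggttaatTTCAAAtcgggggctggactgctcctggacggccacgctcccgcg
Ung: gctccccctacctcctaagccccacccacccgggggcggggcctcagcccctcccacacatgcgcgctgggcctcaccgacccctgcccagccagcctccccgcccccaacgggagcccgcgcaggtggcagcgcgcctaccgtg

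The 6 higher genes were picked for display because the element can be read in them, so they give no share. In each, a TTTGAA has its first base near the RefSeq start, at position −35 in Kpna2, −29 in Ube2c, −5 in Prc1, −14 in Ccnf, −15 in Cdk1 and 3 in Kif23. Here 1 is the first transcribed base by RefSeq and −1 the base before it. For several genes this start differs from the GENCODE gene boundary given above. The printed Kif23 stretch lies wholly outside the GENCODE gene, and the TTTGAA of Kpna2 given here lies outside it too. Those given for Ube2c, Ccnf and Cdk1 lie inside the GENCODE gene, and that of Prc1 spans its first base. Kpna2, Ube2c and Cdk1 also hold more than 1 CCAAT box in the stretches printed. E2f8 holds both motifs too, and the printed stretch of Ung holds neither. Over 300-base windows (250 before and 50 after the start, both strands), TTTGAA was found in 22 of the 29 matched mitotic list members that were at least 2-fold higher (75.9%), and in 40 of the 116 other measured mitotic members (34.5%). It was found in 33 of 178 (18.5%) of all genes at least 2-fold higher, and 22 of these 33 were the mitotic list members just given. It was found in 22 of 177 (12.4%) of genes at least 2-fold lower, in 12.3% of 5417 measured genes and in 18.1% of all 27025 promoters. Within the 100 bases nearest the start, TTTGAA was in 19 of the 29 (65.5%), 25.9% of the 116 and 3.49% of measured genes. Over the whole windows, CCAAT was found in 82.8% of the 29, 57.8% of the 116, 39.9% of measured genes and 37.9% of all promoters. Both motifs together were in 65.5% of the 29, 25.9% of the 116 and 5.50% of measured genes. An E2F motif was found in 3 of the 29 (10.3%), in 21 of 57 matched replication genes (36.8%), in 5.21% of measured genes and in 2.32% of all promoters. The GATA motif AGATAA was in 3.45% of the 29 and 5.83% of measured genes. A match describes the letters in these windows and shows no binding, and mitotic genes are known to share these elements whether or not they differ between cells.

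The same ranking was made on the other plate, whose cells the choice of CFU-E cells did not use. Of 92 BFU-E wells past the depth limits, 56 passed the erythroid minimum, and the 18 highest were set against the 18 lowest. BFU-E scores were more spread, at 7.72 to 9.49 in the 18 highest and 0 to 4.53 in the 18 lowest, so the lowest lay below every mitotic-low CFU-E cell. Of 7783 measured genes, 738 (9.48%) were at least 2-fold higher and 632 (8.12%) at least 2-fold lower in the highest cells. Among the 6475 genes measured on both plates, 9.03% were higher and 5.81% lower in the highest BFU-E cells. Of the 32 mitotic list members that were higher in mitotic-high CFU-E cells, 27 (84.4%) were also at least 2-fold higher in the highest BFU-E cells and 0 lower, with a median log2 fold of 2.35 there. Of all 218 higher genes, 197 were measured in BFU-E cells, and 55 of these (27.9%) were higher and 17 (8.63%) lower. The 55 make up 9.40% of the 585 genes higher in BFU-E cells among those measured on both plates. Of the 186 higher genes outside the mitotic lists, 165 were measured in BFU-E cells, and 28 (17%) were higher and 17 (10.3%) lower. For the 235 lower genes, 198 were measured in BFU-E cells, and 24 (12.1%) were lower and 21 (10.6%) higher. Over the 7 mitotic lists as a whole, 178 members were measured in BFU-E cells, of which 85 passed 2-fold upward there and 5 downward. BFU-E cells were ranked on the same 5 mitotic genes, so higher mitotic genes there are no independent result. Most of the 32 mitotic members were thus higher on both plates, whereas the lower CFU-E genes went either way in BFU-E cells. Of the latter, 12.1% were lower there, against 5.81% of all genes measured on both plates. The share that was higher, 10.6%, stood against 9.03% of all genes measured on both plates.

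Markers of other cell types and the number of genes also differed between the BFU-E groups. The median number of genes with a count before thinning was 8326 in the highest cells and 7250.5 in the lowest. These numbers were read at unlike depths. Total counts per cell spanned 608347 to 3864040 in the highest cells, with a median of 1300934. In the lowest cells they spanned 114288 to 1832551, with a median of 967991. Granulocyte and monocyte markers, 5 of 11 with a count in each group, summed to 0 to 590 CPM per cell in the highest cells and 0 to 5840 CPM in the lowest, with Mpo, myeloperoxidase, at 62.2 CPM in the highest and 318 CPM in the lowest. Elane, Ctsg, Cebpe, S100a8 and S100a9 of that list were at 0 in both. Hepatocyte markers, 8 of 8 with a count in each group, summed to 0 to 710 CPM in the highest cells and 0 to 3580 CPM in the lowest, and Alb, albumin, was at 55 CPM in the highest and 149 CPM in the lowest. Mast cell markers, 3 of 7 with a count in each group, summed to 0 to 200 CPM in the highest cells and 0 to 600 CPM in the lowest. Sums of lymphoid, macrophage, and endothelial and stromal markers were also higher in the lowest cells. Megakaryocyte markers had the highest sums and leaned the other way, at 609 CPM in the highest cells and 487 CPM in the lowest. Their medians per cell were 330 CPM in the highest and 325 CPM in the lowest. At least 3 of them were counted in 9 of the highest and 10 of the lowest cells. Xist stood at 251 CPM in the highest cells and 563 CPM in the lowest. Without every cell that held at least 3 markers of another type, a setting chosen after seeing the data, 6 highest and 4 lowest cells were left. Of the 32 mitotic members, 26 were then at least 2-fold higher in the highest cells and 0 lower, against 28.6% higher of 7371 measured genes. The part of these markers, of the number of genes and of Xist in the other BFU-E counts was not tested.

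Kpna2 was at 1041 CPM in the highest BFU-E cells and 129 CPM in the lowest, and Ube2c at 483 CPM in the highest and 26.1 CPM in the lowest. Prc1 was at 379 CPM in the highest and 29.4 CPM in the lowest, and Cenpf at 232 CPM in the highest and 7.78 CPM in the lowest. Ung was lower there too, at 3.89 CPM in the highest cells and 92.8 CPM in the lowest, and Ccne2 was at 27.2 CPM in the highest and 73.3 CPM in the lowest. Some genes differed on 1 plate more than on the other. Ccna2, near level in CFU-E cells, was at 528 CPM in the highest and 151 CPM in the lowest BFU-E cells, and Mki67 was at 678 CPM in the highest and 198 CPM in the lowest. Oip5, Stag1 and Anapc15, past 2-fold in CFU-E cells, had log2 folds of −0.02, 0.07 and 0.14 between the BFU-E groups. These differences between plates were not tested, and the BFU-E and CFU-E groups differ in score range, plate and lane.

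**Figure D5:**
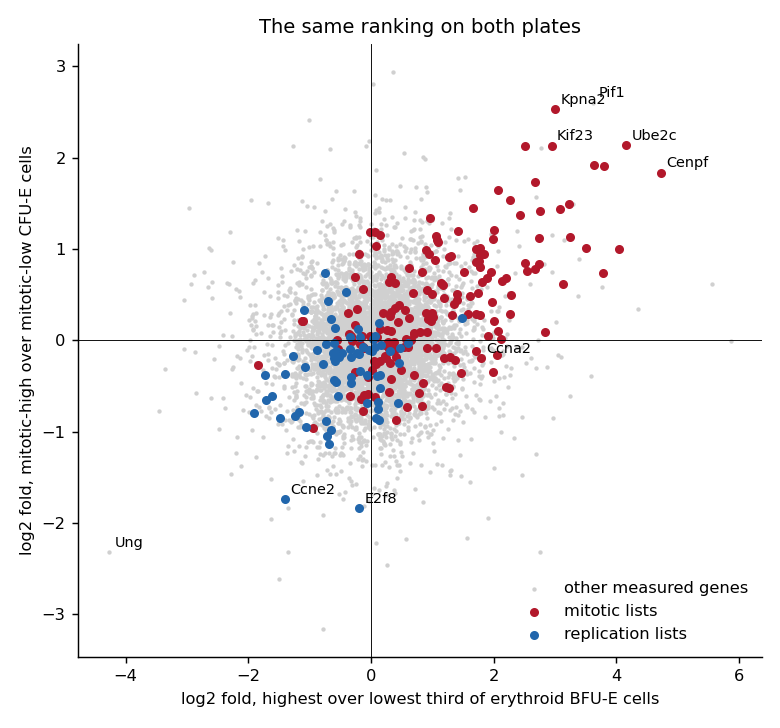
Log2 fold of each gene measured on both plates, with mitotic-high over mitotic-low CFU-E cells on the vertical axis and the 18 highest over the 18 lowest erythroid BFU-E cells on the horizontal axis. Mitotic list members (red) reach the upper right, with Kpna2 at 2.53 on the CFU-E axis, while Ccna2 lies near 0 on the CFU-E axis and at 1.80 on the BFU-E axis.

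Erythroid genes separated the groups little. Gata1, the master erythroid factor, was at 486 CPM (461 to 512) in mitotic-high and 474 CPM (450 to 500) in mitotic-low cells, and Klf1, which drives globin and membrane genes, at 438 CPM (414 to 462) in mitotic-high and 442 CPM (419 to 466) in mitotic-low cells. Epor, the erythropoietin receptor, was at 476 CPM in mitotic-high cells and 333 CPM in mitotic-low cells, a log2 fold of 0.51, and 24 of 30 mitotic-high cells lay above the mitotic-low median. Gata1, Klf1 and Epor also entered the erythroid minimum, which all 60 cells passed. Of 22 erythroid transcription factors, 0 passed 2-fold upward, and Cbfa2t3, a corepressor, was lower at 7.67 CPM in mitotic-high and 19 CPM in mitotic-low cells. Of 25 heme and iron genes and 28 red cell membrane genes, 0 passed 2-fold in either direction, with medians of 0.12 and 0.11. Tfrc, the transferrin receptor CD71 by which cells were sorted, was at 1577 CPM in mitotic-high and 1246 CPM in mitotic-low cells. Kit, the stem cell factor receptor CD117 of the same sort, was at 61.7 CPM in mitotic-high and 78 CPM in mitotic-low cells. Cd24a, which codes for CD24, the other antigen stained for the sort, was at 2508 CPM in mitotic-high and 2616 CPM in mitotic-low cells. Gata1, Klf1, Epor, Tfrc, Kit and Cd24a thus stayed within 2-fold between the ends of the ranking.

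Globin sums were higher in mitotic-high cells, but few cells made the difference. Hba-a1, an alpha-globin gene, ran from 30 to 6390 CPM per cell in mitotic-high cells, with a median of 305, and from 0 to 1240 CPM in mitotic-low cells, with a median of 250. A single cell gave 27% of the Hba-a1 counts of mitotic-high cells. Hbb-bt, a beta-globin gene, summed to 240.0 CPM in mitotic-high and 65.7 CPM in mitotic-low cells, but its medians over cells were 15 CPM in mitotic-high and 25 CPM in mitotic-low cells, the opposite order. The mean globin score had medians of 4.80 in mitotic-high and 6.05 in mitotic-low cells, while 3 mitotic-high cells lay above every mitotic-low cell. Without these 3 cells, a setting chosen after seeing the data, the log2 fold was 0.39 in place of 1.25 for Hba-a1 and 0.06 in place of 1.85 for Hbb-bt. Hba-a1 and Hbb-bt have near-identical neighbours, and reads may have been split between copies.

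Among the genes with the largest folds outside the lists, Pif1, a DNA helicase, was at 92 CPM (81.5 to 104) in mitotic-high and 14.3 CPM (10.4 to 19.3) in mitotic-low cells, and was counted in 25 mitotic-high and 7 mitotic-low cells. Miip, the migration and invasion inhibitory protein, Metap1d, a mitochondrial methionine aminopeptidase, and Mknk1, a kinase of translation factor eIF4E, had log2 folds of 1.77, 1.69 and 1.64. Pif1 and Miip were also at least 2-fold higher in the highest BFU-E cells, Pif1 at 134 CPM there and 10 CPM in the 18 lowest, and Miip at 142 CPM there and 52.2 CPM in the lowest. Mknk1 was at 78.9 CPM in the highest and 28.3 CPM in the lowest BFU-E cells. Metap1d stayed under 2-fold there, with a log2 fold of 0.48.

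The lower genes named by size were, besides Ung, E2f8 and Ccne2, of mixed function. Eed, a subunit of Polycomb repressive complex 2, was at 15.7 CPM (11.5 to 20.8) in mitotic-high and 57.7 CPM (49.4 to 66.9) in mitotic-low cells, and was counted in 15 mitotic-high and 27 mitotic-low cells. Klhl9, an adaptor of a CUL3 ubiquitin ligase that acts on Aurora B, was at 12.7 CPM in mitotic-high and 60.7 CPM in mitotic-low cells. Hif1a, the hypoxia-inducible factor, was at 25.3 CPM in mitotic-high and 81 CPM in mitotic-low cells, and Xbp1, a factor of the unfolded protein response, at 22.3 CPM in mitotic-high and 62.3 CPM in mitotic-low cells. Cog1 and Rab6a, of Golgi trafficking, Vkorc1l1, a vitamin K reductase, Phf10, a chromatin remodelling subunit, Insig1, which restrains sterol synthesis, Usp34, a deubiquitinase, D17Wsu92e and Smim10l1 had log2 folds from −2.16 to −1.44. For some of them the medians over cells were close. That of Usp34 was 40 CPM in both groups, with values up to 200 CPM in mitotic-high and 660 CPM in mitotic-low cells. Medians were also close for Insig1, at 0 CPM in mitotic-high and 5 CPM in mitotic-low cells, for Hif1a, at 5 CPM in mitotic-high and 15 CPM in mitotic-low cells, and for Cog1 and Rab6a, which differed by 10 CPM. Between the BFU-E groups, Eed was at 64.4 CPM in the highest and 69.4 CPM in the lowest, Klhl9 at 65 CPM in the highest and 43.3 CPM in the lowest, and Cog1 at 51.1 CPM in the highest and 16.7 CPM in the lowest. Of these 12 genes, Insig1 was at least 2-fold lower on the other plate too, at 11.7 CPM in the highest and 60.6 CPM in the lowest BFU-E cells, and Cog1 and Rab6a were at least 2-fold higher there. Exons of Eed, Klhl9, Cog1, Hif1a, Rab6a, Phf10, Usp34 and Smim10l1 overlap another annotated gene, whose reads cannot be told apart without the strand setting. The same holds, among others, for the ranking genes Plk1 and Cdc20. It holds too for Ube2c, Prc1, Ccnf, Mknk1, Cdc25c, Top2a, E2f8, Ccne2, Ccna2, Anapc15, Lin37, Kif4 and Hmgcs1.

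Inhibitors of cyclin-dependent kinases hold cells back from division. Cdkn1a, the inhibitor p21, had no count in either group, which lies under the floor of 1 CPM that 3 counts per group set. Cdkn1b, the inhibitor p27, was at 9.67 CPM in mitotic-high and 5.67 CPM in mitotic-low cells. Of 11 measured G1 regulators, Cdkn3, a phosphatase of cyclin-dependent kinases, was higher at 17 CPM in mitotic-high and 7.33 CPM in mitotic-low cells, and Skp2, the F-box protein that removes p27, was lower at 50.7 CPM in mitotic-high and 112 CPM in mitotic-low cells. Myc was at 313 CPM in mitotic-high and 269 CPM in mitotic-low cells. The p53 and apoptosis list had 0 of 12 measured genes past 2-fold, with a median of −0.02.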

How the data were processed

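The authors deposited raw counts of reads per gene and well. Per the submitters' processing notes, reads were aligned to GRCm38, with STAR 2.4 and featureCounts as the tools named and no featureCounts version stated. Per the labels' protocols, wells were prepared by SmartSeq2 and Nextera XT, a chemistry that reads whole transcripts and marks neither strand nor molecule. Not given in the sources used here are the annotation release, the strand setting and how multi-mapping reads were counted. Of 192 columns, 191 matched a labelled cell and 1 was not used. The plates were indexed with the same sets of primers and share 95 index pairs, but were sequenced in lanes 3 (CFU-E) and 2 (BFU-E).

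Cells were kept at 100000 counts and 2000 genes and ranked on CPM before thinning. Each was then thinned without replacement to 100000 counts (seed 1), counts were summed per group, and log2 folds were taken of CPM + 1. A gene was measured at a mean of 10 CPM and a count in 15 of the 60 cells; the 5 ranking genes were left out of every count. A floor of 3 counts over a group equals 1 CPM. Cells of 1 plate are not replicates, so no test was made, and no doublet caller was run on these singly sorted wells. The ranking and the fold calculation were tested on simulated data, and the intervals were not.

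The text names the 15 genes with the highest and the 15 with the lowest fold that reached 50 CPM in the higher group and a count in 50% of its cells (without predicted genes). The text also draws on the 3 largest members and the largest opposite member of each list, a panel of 22 genes and the 3 top markers of each other cell type. Other list members past 2-fold, and partners set beside them, were chosen after their values were seen. A few genes that these rules name are not reported here. The members and the lists (27 gene lists, 8 marker lists, 727 symbols, 7 of them not analysed here) were chosen with earlier results of these data known. Coordinates are from GENCODE M21 on GRCm38, which holds 49326 of 49466 genes in the table. Alternatives covered thinning, scaling (TMM of edgeR 4.0.16 in R 4.3.3), the pseudocount, the filters, the ranking genes, the group size and medians over cells. Python 3.11.15, numpy 2.4.6, scipy 1.17.1, pandas 2.3.3 and matplotlib 3.10.9 were used.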

Additional observations from a re-analysis of the deposited data

How the results depend on the processing

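Counts of genes at the 2-fold limit moved with the settings, and so did some counts of list members. Under the 22 settings, 1188 counts of members past 2-fold were taken over the 27 gene lists. Of these, 1008 stayed within 1.5 times of the count reported, or at 0 where that was 0, and 180 moved. With a pseudocount of 5 CPM, 132 genes were higher and 132 lower, and with a minimum mean of 50 CPM, 44 higher and 27 lower. With 20 cells per group, 385 were higher, 435 lower and 10 replication members lower, and with 40 cells, 128 were lower, 21 mitotic members higher and 3 replication members lower. By medians over cells, 829 were higher, 494 lower and 12 replication members lower. Without the cells with markers of other types or of both sexes, a setting chosen after seeing the data, 341 were higher. TMM scaling gave 267 higher and 234 lower, and a second random seed 219 higher and 206 lower. In the other settings, the counts of higher genes, lower genes, higher mitotic members and lower replication members stayed within 1.5 times of those reported. Over all settings, the mitotic members at least 2-fold lower numbered 0 to 4, and the replication members at least 2-fold higher 0 to 2. With 15 cells per group, BFU-E cells gave 895 higher and 760 lower genes, and without cells with markers of other types (6 highest and 4 lowest left) 2105 higher, 1317 lower and 20 replication members lower. Of 1210 values of 55 named genes under 22 settings, 1012 stayed within the limits, 195 moved and 3 reversed: Anapc15, at −0.041 with a second seed and −0.20 without the erythroid minimum, and Hbb-bt, at −0.70 by medians over cells. The cause was not tested. Leaving out each ranking gene in turn kept 26 to 29 of the mitotic-high and 25 to 27 of the mitotic-low cells. No paired analysis was possible because both groups are cells of 1 plate with no replicate numbers. Differences between animals or plates have no estimate, and folds of genes under 20 CPM rest on few counts.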

Other observations

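Outside the cell cycle and erythroid genes, most lists lay within 2-fold. Of 31 cytosolic ribosomal protein genes, 25 ribosome biogenesis and MYC genes, 28 genes of oxidative phosphorylation, 9 mitochondrially encoded genes, 9 immediate early and stress genes, 10 erythropoietin signalling genes and 7 stem and multipotent progenitor genes measured, 0 were at least 2-fold apart in either direction, with medians from −0.23 to 0.07. Of 17 measured glycolysis genes, 16 had a negative log2 fold, with a median of −0.19, and Slc16a1, the lactate transporter MCT1, was at 50 CPM in mitotic-high and 130 CPM in mitotic-low cells. Among 18 cholesterol genes, Hmgcs1, which starts the mevalonate pathway, was higher, at 33 CPM in mitotic-high and 15.7 CPM in mitotic-low cells, while Insig1 was lower. Among 16 autophagy genes, Ulk1, the kinase that starts the process, and Lamp1, a lysosomal membrane protein, were lower, Ulk1 at 9.33 CPM in mitotic-high and 23 CPM in mitotic-low cells and Lamp1 at 32.7 CPM in mitotic-high and 66.3 CPM in mitotic-low cells.

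Among the markers of other cell types, those of hepatocytes and then of megakaryocytes had the highest sums, and Vwf, von Willebrand factor, was counted in 15 mitotic-high and 10 mitotic-low cells, at 14 CPM in mitotic-high and 11.3 CPM in mitotic-low cells. Of 11 granulocyte and monocyte markers, 0 were counted in mitotic-high cells and 1 in mitotic-low cells, Lyz2, at 1 CPM. Summed levels in mitotic-high and mitotic-low cells were 27.3 and 23 CPM for 10 megakaryocyte markers, 2 and 0.333 CPM for 7 mast cell markers, 6 and 7.67 CPM for 11 lymphoid markers, 3.33 and 1.67 CPM for 9 macrophage markers, and 13.7 and 0.667 CPM for 9 endothelial and stromal markers. Hepatocyte markers, of which 7 of 8 were counted in each group, summed to 0 to 1730 CPM per cell in mitotic-high cells, with a median of 60, and to 0 to 640 CPM in mitotic-low cells, with a median of 135. At least 10 counts of Xist were found in 16 mitotic-high and 21 mitotic-low cells, and at least 10 of Y-linked genes in 15 mitotic-high and 9 mitotic-low cells, with 1 mitotic-high cell holding both. The part of embryo sex and of hepatocyte transcripts in the results was not tested. Of 10 late erythroblast markers, 9 were measured and 0 passed 2-fold, with a median of 0.13.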
